A study of Mus musculus with 4 samples.

Results

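Neutrophils without interferon genes were the cells of periwound skin that carried neutrophil transcripts and at most 1 detected gene of a short interferon list. They were chosen by their raw UMI counts (unique molecular identifiers, 1 for each transcript counted). A cell was kept if 200 to 3000 genes were detected in it and no more than 10% of its UMIs were mitochondrial. A kept cell was taken as a neutrophil if it held a UMI of at least 4 of the 8 genes *Csf3r*, *Cxcr2*, *S100a8*, *S100a9*, *Retnlg*, *G0s2*, *Mmp9* and *Hdc* and no UMI of *Cd3g*, *C1qa* and *Mcpt8*. Neutrophils with at least 2 of the 5 interferon genes *Ifit1*, *Ifit2*, *Ifit3*, *Rsad2* and *Oasl1* were set aside. This left 873 neutrophils of 6443 kept cells, out of 7178 deposited cells. A further 104 kept cells met the neutrophil gate but were set aside as interferon neutrophils, and these are counted among the other kept cells below. Since the cells were selected on these genes, the levels of the rule genes and every contrast of the neutrophils with the other cells are descriptions without a test.

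Neutrophils are short-lived granulocytes that leave the bone marrow through the blood and are among the first immune cells to enter a wound. They carry microbicidal proteins that are made in the marrow and packed into granules, they follow chemokines and bacterial peptides through surface receptors, and they call further leukocytes with chemokines of their own. Type I interferon switches on a separate programme, to which the *Ifit* genes, *Rsad2* and *Oasl1* belong.

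The study took skin from the edge of an 8 mm punch wound between the shoulders of C57/BL6j mice, 6 weeks old, on day 7 after wounding. The hucMSC-Exosomes group (2 libraries, hucMSC-Exo 1 and 2) had received exosomes, small extracellular vesicles, of human umbilical cord mesenchymal stem cells under the skin around the wound, 100 µg per injection every 48 h. The control group (2 libraries, Control 1 and 2) had received the same volume of phosphate-buffered saline. Each library came from 1 mouse, and strain, wounding and the removal of red and dead cells were common to all 4. Groups were taken from the sample titles, while letters in the matrix names would pair the libraries otherwise. Every comparison between the groups thus rests on the titles. The study, by its own clusters, counted several times more neutrophils in its hucMSC-Exosomes group than in its control group. In the deposited cells the neutrophil gate, interferon neutrophils included, held 49 cells in Control 1 and 321 in Control 2. It held 91 in hucMSC-Exo 1 and 516 in hucMSC-Exo 2. By the titles, each group joins a library with few neutrophils and another with many. Which pairing is right was not tested. The tissue labels name parts of the gut, whereas the cell type label names skin cells. In the neutrophils the 5 listed markers of intestinal epithelium summed to at most 1.40 UMIs in 1000000, against 1543 to 2598 for 5 keratinocyte markers. In series of 4 values below, the order is always the control libraries 1 and 2, then the hucMSC-Exo libraries 1 and 2.

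The neutrophils were unevenly spread over the libraries. Of the kept cells, they made up 4.20% in Control 1 (40 of 952 cells, exact 95% binomial interval 3.02% to 5.68%) and 14.3% in Control 2 (296 of 2074, 12.8% to 15.9%). They made up 6.29% in hucMSC-Exo 1 (89 of 1416, 5.08% to 7.68%) and 22.4% in hucMSC-Exo 2 (448 of 2001, 20.6% to 24.3%). The intervals cover counting error only. In both groups the second library held several times the share of the first. The group means were 9.24% ± 7.12 in the control group and 14.3% ± 11.4 in the hucMSC-Exosomes group (SD, n = 2 each). Their difference, 5.10 percentage points, did not reach the SD of either group, and the exact two-sided permutation test over the 4 libraries gave p = 0.667, where 2 libraries against 2 cannot go below 0.333. Without hucMSC-Exo 2 the difference was -2.95 points, and without Control 1 it was 0.0651 points.

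**Figure D1:**
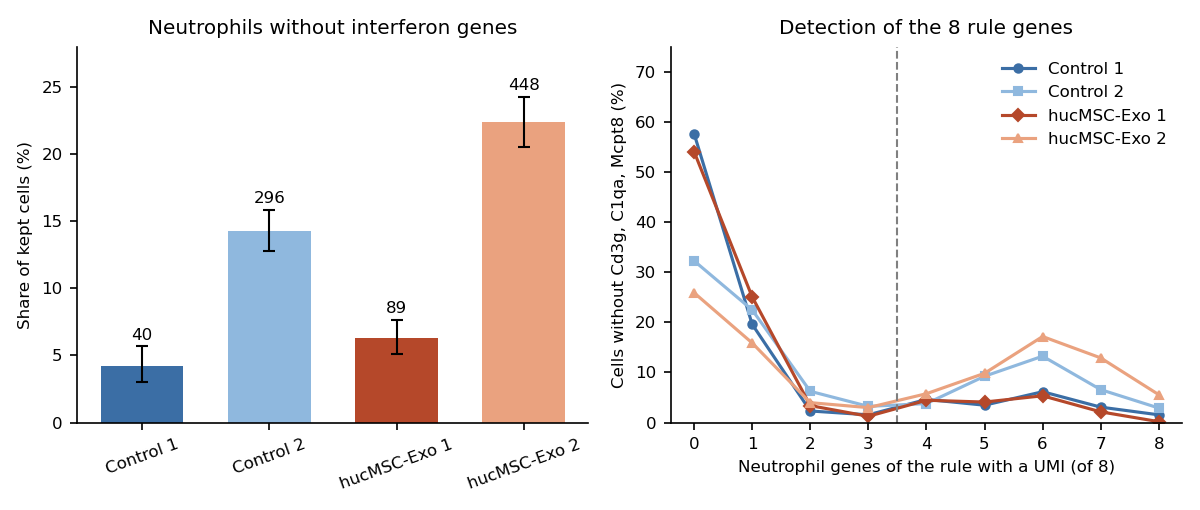
Left, share of kept cells that were neutrophils without interferon genes, in percent, in each library (bars) with exact 95% binomial intervals (lines). Right, share in percent of the kept cells without *Cd3g*, *C1qa* and *Mcpt8* by the number of the 8 neutrophil genes with a UMI, 1 line per library, with the threshold of 4 marked; the second library of each group holds the larger share, and every library has fewer cells at 3 genes than at 1, 2 or 4.

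The share of neutrophils at the threshold of 4 genes differed between libraries. They were 9 of 40 in Control 1 and 25 of 89 in hucMSC-Exo 1, against 30 of 296 in Control 2 and 52 of 448 in hucMSC-Exo 2. In Control 2, 29 kept cells without an excluded gene held 3 of the 8 genes, 34 held 4 and 119 held 6, interferon neutrophils included. The numbers were 30, 58 and 173 in hucMSC-Exo 2, 7, 25 and 30 in hucMSC-Exo 1, and 4, 12 and 16 in Control 1. *S100a8* is itself a gene of the rule, so its level is not independent of the number of rule genes. In hucMSC-Exo 2 it stood at 10832 UMIs in 1000000 in the cells with 3 genes and at 30406 in the neutrophils with 4. *Cd74*, a gene of antigen presentation, stood there at 2891 and 86.8. In hucMSC-Exo 1 *S100a8* stood at 14120 and 47254, and at 45168 over all neutrophils of that library. On the interferon side, 161 of the 873 neutrophils held 1 of the 5 interferon genes, and 46 interferon neutrophils held exactly 2.

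The neutrophils had small transcriptomes. Their median UMIs per cell were 2146, 2214, 1875 and 2133, against 4443, 5026, 3883 and 4555 in the other kept cells. Their median number of detected genes was 886, 791, 666 and 807, against 1425 to 1678. Depth per neutrophil was thus similar over the libraries, whereas the UMIs summed over all neutrophils of a library were 85761, 716220, 190133 and 1075704. Levels below are CPM, a gene's share of these summed UMIs scaled to 1000000, and since each transcript is counted once from its 3′ end they are not divided by gene length. A count of 3 UMIs equals 35.0 CPM in Control 1 and 2.79 CPM in hucMSC-Exo 2, so Control 1, with 40 neutrophils, is the least precise library. Its correlations of log2 CPM across genes were 0.773 to 0.829 with the other libraries, against 0.893 to 0.959 among those. The lowest was between the libraries with fewest UMIs and the highest between those with most. The part of depth in these correlations was not tested. No barcode of a neutrophil was shared between libraries.

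*S100a8* and *S100a9* encode the subunits of calprotectin, a calcium-binding protein of the neutrophil cytosol, and both belong to the rule. *S100a9* stood at 31739 and 63615 CPM in the control group and 67085 and 67919 in the hucMSC-Exosomes group. *S100a8* stood at 25746 and 40599 CPM in the control group and 45168 and 47802 in the hucMSC-Exosomes group. Both were lowest in Control 1. The other rule genes were lower: *Hdc*, histidine decarboxylase, stood at 1573 to 2519 CPM, *G0s2* at 1504 to 2601, *Csf3r*, the receptor of granulocyte colony-stimulating factor, at 621 to 1376, *Retnlg* at 581 to 1166, *Cxcr2*, a chemokine receptor, at 310.3 to 682 and *Mmp9*, gelatinase B, at 195 to 431 CPM. A UMI of *S100a8* was found in 95 to 100% of the neutrophils, one of *Hdc* in 93.1 to 100%, one of *Cxcr2* in 36.0 to 62.7% and one of *Retnlg* in 29.1 to 37.3%.

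The start regions of *S100a8*, *S100a9* and *Cxcl2* are shown because these genes carry the highest levels of the rule genes and of the secreted factors, and because C/EBP proteins, NF-kB and ETS factors such as PU.1 are known to act on myeloid and inflammatory promoters. The sequences are RefSeq promoters of GRCm38.p6, 250 bases before to 50 bases after the annotated start, 5′ to 3′ on the strand of the gene. Capitals mark matches, on either strand, to TTNNGNAA (C/EBP), GGGNNNNNCC (NF-kB) or AGGAAGT (ETS). *S100a8* lies at chr3:90668821-90669120 on the plus strand, *S100a9* at chr3:90695672-90695971 on the minus strand and *Cxcl2* at chr5:90903649-90903948 on the plus strand.
S100a8: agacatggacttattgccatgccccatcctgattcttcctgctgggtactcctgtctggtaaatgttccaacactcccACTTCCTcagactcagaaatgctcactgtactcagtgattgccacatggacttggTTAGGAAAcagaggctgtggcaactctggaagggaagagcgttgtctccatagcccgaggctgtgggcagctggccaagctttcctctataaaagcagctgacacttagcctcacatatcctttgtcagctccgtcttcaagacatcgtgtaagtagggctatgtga
S100a9: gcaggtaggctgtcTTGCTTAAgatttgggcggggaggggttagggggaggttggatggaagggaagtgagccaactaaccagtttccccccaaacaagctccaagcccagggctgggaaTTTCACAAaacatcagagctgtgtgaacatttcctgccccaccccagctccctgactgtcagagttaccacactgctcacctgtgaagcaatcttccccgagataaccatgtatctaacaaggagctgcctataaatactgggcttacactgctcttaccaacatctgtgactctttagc
Cxcl2: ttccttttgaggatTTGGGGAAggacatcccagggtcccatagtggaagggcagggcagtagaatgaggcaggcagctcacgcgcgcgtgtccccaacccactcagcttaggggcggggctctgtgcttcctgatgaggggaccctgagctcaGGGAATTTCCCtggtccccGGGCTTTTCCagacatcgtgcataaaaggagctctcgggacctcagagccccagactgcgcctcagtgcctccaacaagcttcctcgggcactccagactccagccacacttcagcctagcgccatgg
The *S100a8* window held 1 C/EBP and 1 ETS match, the *S100a9* window 2 C/EBP matches, and the *Cxcl2* window 3 NF-kB matches, overlapping in part, and 1 C/EBP match. Of all 32851 promoters of this length, 40.7% held the C/EBP letters, 50.8% the NF-kB letters and 9.35% the ETS letters, so a match describes the letters only.

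*Cxcl2*, a ligand of CXCR2 that draws in neutrophils, was the most abundant chemokine transcript. It stood at 13363 and 24583 CPM in the control group and 29816 and 16800.2 in the hucMSC-Exosomes group, and a UMI was found in 77.5 to 95.5% of the neutrophils. In the other kept cells it stood at 1861, 3485, 4776 and 2839 CPM, so that it was 5.92 to 7.18 times higher in the neutrophils, and the order of the libraries was the same in both. *Cxcl3*, another CXCR2 ligand, stood at 175, 1999, 1515 and 1515 CPM and was lowest in Control 1. *Ccl3* stood at 781, 1586, 1583 and 1202 CPM, 1.63 to 5.13 times the other cells. *Ccl4* stood at 163, 1558, 479 and 859.9 CPM, 0.427 to 1.37 times the other cells, and thus on both sides of them. *Ccl6* stood at 431, 786, 373 and 846 CPM. *Ccl5*, typical of T cells and natural killer cells, was lower than in the other cells, at 0 to 23.3 against 202 to 655 CPM, as was *Cxcl16*, at 0 to 42.1 against 229 to 365 CPM. Of the 13 chemokine genes examined, 5 were higher and 5 lower in the neutrophils than in the other cells of all 4 libraries. Among all 1247 genes with a mean of at least 100 CPM in the neutrophils, 644 were higher and 308 lower. Such counts for gene lists below are given beside these. The 1247 genes were chosen by their level in the neutrophils, which favours genes that are higher there. The lists have no such filter, so their counts are not directly comparable.

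Among cytokines *Il1b*, which encodes the precursor of interleukin-1β, led. It stood at 10693 and 4993 CPM in the control group and 5412 and 4697 in the hucMSC-Exosomes group, 2.92 to 14.3 times the other cells. *Il1rn*, the gene of the receptor antagonist, stood at 419.8, 790.3, 615 and 704 CPM, and *Il1r2*, the decoy receptor, at 1726, 1594, 1257 and 2054 CPM. Control 1 was thus the highest library for *Il1b* and the lowest for *Il1rn*. *Il1f9*, which encodes interleukin-36γ, stood at 233 to 494 CPM in the neutrophils and at 0.639 to 9.28 CPM in the other cells. *Osm*, oncostatin M, stood at 149 to 199.7 CPM, *Csf1* at 99.9 to 337 and *Tnf* at 26.3 to 187 CPM. *Tgfb1* was lower in the neutrophils of all 4 libraries, at 36.8 to 93.3 against 177 to 234 CPM, and *Il10* had 1 UMI in all neutrophils together. Of the 13 cytokine and growth factor genes, 6 were higher and 4 lower in all 4 libraries, beside 644 and 308 of the 1247 genes.

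Receptors for microbes, danger signals and chemoattractants were high in the neutrophils. Of the 10 listed sensing genes, 9 were higher than in the other cells in all 4 libraries, and they summed to 8500.4, 11533, 10398 and 10849.6 CPM, 6.02 to 8.57 times the other cells. *Cd14*, the co-receptor for lipopolysaccharide, stood at 3335 to 4245 CPM, and the C-type lectins *Clec4d* and *Clec4e* at 1679 to 2873 and 1883 to 2766 CPM. *Trem1*, an amplifier of inflammatory signals, stood at 735, 857, 752 and 908 CPM and was found in 67.5 to 72.8% of the neutrophils. Of the 10 chemoattractant receptors, 8 were higher and 2 lower in all 4 libraries. Among the higher ones were *Ccrl2* at 873 to 2589 CPM, *Ccr1* at 956 to 1911, *Ptafr*, the receptor of platelet-activating factor, at 584 to 747, and the formyl peptide receptors *Fpr1* at 105 to 292 and *Fpr2* at 226 to 372 CPM. *Cxcr4*, which retains neutrophils in the marrow, stood at 769.6, 378, 199.9 and 363 CPM.

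The label was checked against 11 neutrophil markers that the rule did not use. Of these, 10 were higher than in the other kept cells of all 4 libraries, and their sum was 10.1 to 18.6 times higher. The remaining marker was *Ly6g*, the surface antigen by which mouse neutrophils are usually stained, which was listed in Control 2 and hucMSC-Exo 2 only. It stood at 44.7 CPM in Control 2 and 25.1 CPM in hucMSC-Exo 2. In Control 2 it was found in 7.09% of the neutrophils and 0.169% of the other kept cells. In hucMSC-Exo 2 these shares were 4.69% and 0.322%. The 9 T cell markers, of which *Cd3g* is at 0 by the rule, summed to 10.5 to 16.8 CPM against 2827 to 5716 in the other cells, and *Trdc*, *Cd4* and *Cd8a* were at 0. Basophils also use *Hdc*, but their markers, of which *Mcpt8* is at 0 by the rule, summed to at most 3.72 CPM. *Gata2*, *Ms4a2* and *Fcer1a* were at 0. Mast cell markers summed to at most 5.26 CPM, natural killer cell markers to 4.65, dendritic cell markers to 39.1, endothelial markers to 15.8 and platelet markers to 23.3, while the listed B cell and red cell markers were at 0. Monocyte markers summed to 187 to 573 CPM against 670.0 to 1721 in the other cells. Of the eosinophil markers, *Siglecf* stood at 10.5 to 35.0 CPM in 2.25 to 7.5% of the neutrophils, above the other cells in all 4 libraries, whereas *Prg2* and *Ear2* were at 0.

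Transcripts of skin and of macrophages were counted in the same cells. The 5 keratinocyte markers summed to 2472, 1662, 2598 and 1543 CPM in the neutrophils and to 427 to 968 CPM in the other cells, and all 5 were higher in each library. *Krt14* alone was found in 69.9 to 90% of the neutrophils. A UMI of any of the 5 markers was found in 95, 89.9, 91.0 and 89.7% of the neutrophils. In the other cells, whose median UMIs were higher, these shares were similar, at 97.8, 88.2, 92.5 and 90.0%. Fibroblast markers summed to 385, 1009, 463 and 470.4 CPM, against 242 to 416, and macrophage markers to 933, 869.8, 778 and 1052 CPM, against 4285 to 8241, most of it *Apoe* at 710.0 to 974 CPM. *S100a8* was also counted in cells that should lack it: of the kept cells with a UMI of the T cell gene *Cd3g*, 3.38, 20.3, 12.2 and 14.2% held a UMI of *S100a8*, at median depths of 3989.5, 4423, 3383 and 4336 UMIs, against 95 to 100% of the neutrophils at the lower depths above. The part of free RNA in the neutrophil values was not tested.

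The 25 genes outside the rule with the largest fold over the other kept cells, ranked by the library with the lowest fold, were taken from the 1247 genes with a mean of at least 100 CPM in the neutrophils. Of those 1247 genes, 644 were higher and 308 lower in the neutrophils of all 4 libraries. The median fold of the 25 was 5.53 ± 0.81 on the log2 scale (SD, n = 4 libraries). *Cstdc4* and *Stfa2l1*, cystatin-type protease inhibitors of the stefin A cluster, stood at 525, 2121, 2172 and 3886 and at 839.5, 1456, 1399 and 2345 CPM. Stefin A genes are near-identical copies, so the assignment of reads between them is uncertain. *Slpi*, a secreted inhibitor of neutrophil proteases, stood at 1621, 3951, 7653 and 3917 CPM, 14.8 to 42.0 times the other cells, and was highest in hucMSC-Exo 1. *Lcn2*, lipocalin-2, which binds bacterial siderophores, stood at 571, 684, 1225 and 809 CPM. *Hcar2*, the receptor of niacin, stood at 268 to 493 CPM, *Slc40a1*, the iron exporter ferroportin, at 187 to 391, *Il1rap*, a subunit of interleukin-1 family receptors, at 139.9 to 355, and the cytokine gene *Il15* at 126 to 222 CPM. *Wfdc21* (321 to 553 CPM), *Asprv1* (653 to 1030.0 CPM), *Lrg1* (198 to 654 CPM), *Chil1* (94.7 to 139.9 CPM) and *Trem3* (105 to 205 CPM) were also among them, as were the noncoding RNAs *Mirt1* (421 to 563 CPM) and *Mirt2* (198 to 327 CPM). A RefSeq promoter was matched for 19 of the 25, of which 13 held the C/EBP letters, 9 the NF-kB letters and 3 the ETS letters.

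**Figure D2:**
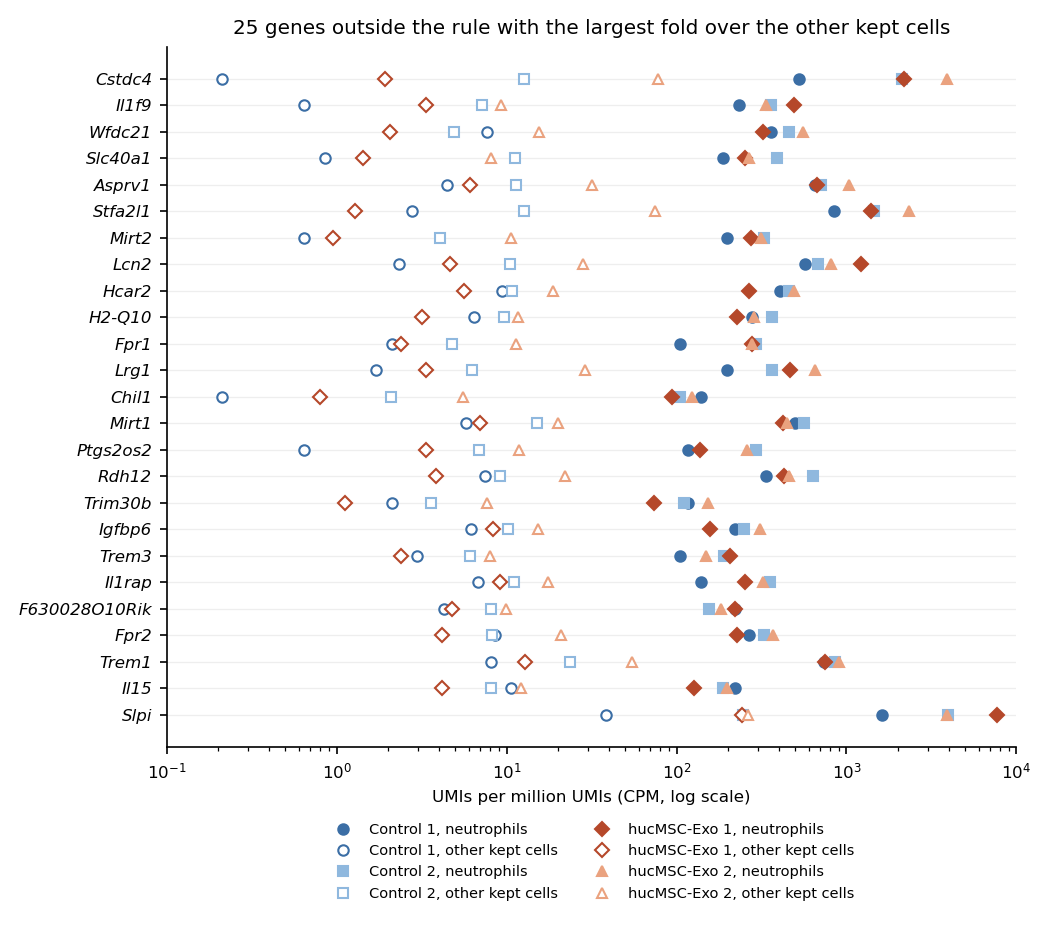
CPM on a log axis of the 25 genes outside the rule with the largest fold over the other kept cells, 1 row per gene and 1 symbol per library, filled for the neutrophils and open for the other kept cells. For every gene the 4 filled symbols lie to the right of all open ones, for *Slpi* at 1621 to 7653 against 38.6 to 264 CPM.

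Iron storage took a large part of the transcriptome. *Fth1*, ferritin heavy chain, stood at 32241 and 63947 CPM in the control group and 75368 and 52329 in the hucMSC-Exosomes group, and *Ftl1*, the light chain, at 7148, 9693, 12049.5 and 6991 CPM. *Fth1* was 2.51 to 2.80 times the other cells, a narrow range beside the spread of its levels over the libraries. *Slc7a11*, the cystine transporter that feeds glutathione synthesis, stood at 2973, 2751, 2866 and 1813 CPM, 5.61 to 24.9 times the other cells, and *Prdx5*, a peroxiredoxin, at 886 to 1557 CPM. *Hmox1*, haem oxygenase, was lower than in the other cells of each library, at 46.6, 713, 1273 and 366 CPM. The 30 most abundant genes held 30.7% to 39.4% of all UMIs. They include the noncoding RNA *Malat1* at 24219 to 28763 CPM and *Gm42418*, which overlaps a ribosomal RNA repeat and is uncertain as a gene, at 24394 to 53929 CPM with the highest value in Control 1.

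Most granule genes were low. Transcripts of azurophil granules, which belong to promyelocytes, were at or near 0, *Mpo* at 0 to 0.930 and *Prtn3* at 0 to 4.19 CPM. The specific granule genes *Camp* (0 to 11.2 CPM), *Ltf* (0 to 53.9 CPM) and *Ngp* (0 to 88.3 CPM) were low, whereas *Pglyrp1* stood at 195 to 513 CPM and *Lcn2* at the levels above. *Lyz2*, lysozyme, was lower than in the other cells, at 373 to 627 against 1952 to 3047 CPM. Among the subunit genes of the NADPH oxidase, which makes the microbicidal burst, *Ncf1* (216 to 303 CPM), *Ncf4* (187 to 279.8 CPM) and *Rac2* (326 to 501 CPM) were higher than in the other cells of all 4 libraries. *Cybb*, the catalytic subunit, was lower, at 0, 22.3, 78.9 and 57.6 against 142 to 308 CPM.

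Proliferation genes were low, with none of 15 cell cycle genes at a mean of 100 CPM and 9 lower than in the other cells of all 4 libraries. *Mki67* stood at 0 to 23.3 CPM against 23.7 to 48.7 and was found in 0 to 2.5% of the neutrophils. In hucMSC-Exo 1, 0 of 89 neutrophils held a UMI of *Mki67*, which allows a share of up to 3.37% of cells with a UMI.

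Ribosomal protein genes were low as a group, 80 of 82 being lower in the neutrophils than in the other cells of all 4 libraries. They summed to 87569, 60677, 92299 and 74801 CPM, against 201467 to 231571. All 13 mitochondrially encoded genes were lower too, with sums of 3369.8, 6619, 7447 and 6994 CPM against 28922 to 33594. The 5 genes of major histocompatibility complex class II presentation were likewise lower, with sums of 385, 1340.4, 384 and 325 CPM against 10354 to 13746. Of 12 listed transcription factors of myeloid cells, 5 were higher and 1 lower than in the other cells of all 4 libraries. The counts over the 1247 genes were 644 and 308. *Cebpb* stood at 7253, 5716, 5186 and 4922 CPM, 3.95 to 7.63 times the other cells, *Mxd1* at 2029 to 2721 and *Spi1*, which encodes PU.1, at 376 to 396 CPM. *Cebpe*, of earlier granulocytes, stood at 0 to 11.7 CPM.

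Survival genes were headed by *Mcl1*, on which neutrophils depend, at 2600.3, 2209, 1909 and 2384 CPM and 2.88 to 3.68 times the other cells. *Bcl2a1b*, an anti-apoptotic gene with near-identical copies that may share its reads, stood at 979, 373, 447 and 374 CPM and exceeded the other cells in Control 1 and in no further library. *Bcl2l11*, which encodes the pro-apoptotic BIM, stood at 455 to 761 CPM, 4.17 to 6.82 times the other cells, and *Bcl2* at 0 to 26.3 CPM. Of 17 glycolysis and hypoxia genes, 10 were higher in all 4 libraries, a share similar to 644 of all 1247 genes with a mean of at least 100 CPM. Their sum was 1.08 to 1.46 times that of the other cells. *Slc2a3*, a glucose transporter, stood at 245 to 363 against 14.1 to 34.1 CPM, and *Pkm*, pyruvate kinase, at 711 to 918 against 350.3 to 468 CPM.

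**Figure D3:**
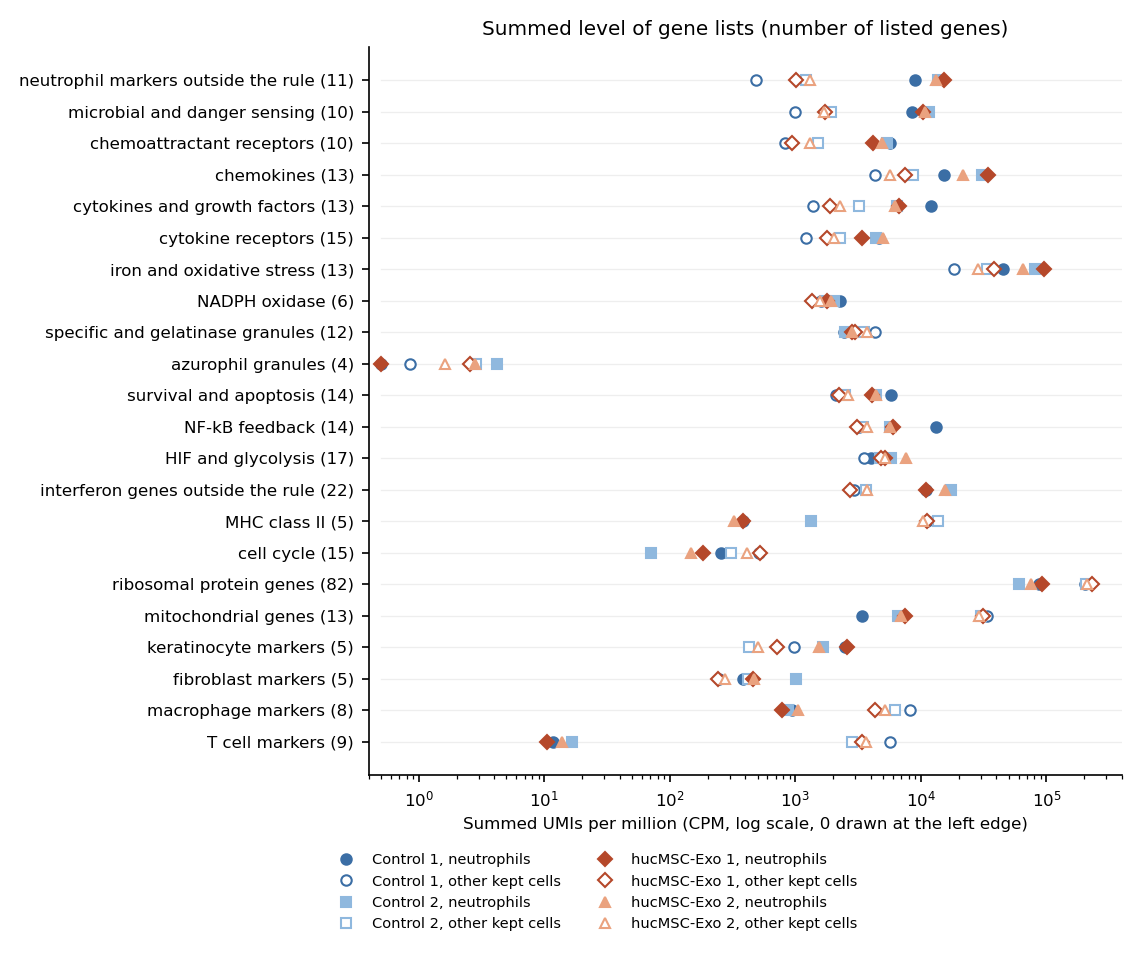
Summed CPM on a log axis of gene lists, with the number of listed genes in brackets, in the neutrophils (filled) and the other kept cells (open) of each library. Sums of sensing genes (8500.4 to 11533 against 992 to 1915 CPM) lie to the right of the open symbols and those of ribosomal, mitochondrial and class II genes to the left, and NF-kB feedback genes show Control 1 at 13223 CPM, apart from the other filled symbols at 5657 to 6017.

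Setting cells aside by 5 genes left other interferon-related transcripts in the neutrophils. The 22 listed interferon genes outside the rule summed to 11077, 17439, 10929 and 15507 CPM, 3.77 to 4.80 times the other cells. Of them, 10 were higher and 4 lower in all 4 libraries. Among all 1247 genes with a mean of at least 100 CPM in the neutrophils, 644 were higher and 308 lower. Only 8 of the 22 listed genes reached that mean, so the counts are not directly comparable. Most of the sum came from *Ifitm1* and *Ifitm2*. The highest were *Ifitm1* (3591 to 8024 CPM), *Ifitm2* (4116 to 7111 CPM) and *Ifitm3* (663 to 1586 CPM), which encode antiviral membrane proteins. Interferon neutrophils were most numerous in Control 2 (25 cells) and hucMSC-Exo 2 (68 cells), and the values of these libraries follow, interferon neutrophils first. *Isg15*, a ubiquitin-like protein, stood at 1228 and 636 against 166 and 100.4 CPM, *Ifitm3* at 3471 and 4291 against 1109 and 1586, *Slfn4* at 1261 and 1200.4 against 299 and 454, and *Irf7*, a transcription factor of interferon genes, at 491 and 420.1 against 85.2 and 93.9 CPM. *Cxcl10*, an interferon-induced chemokine, stood at 393 and 240.1 against 9.77 and 72.5 CPM. Neutrophil genes were closer: *S100a8* stood at 49733 and 50679.7 against 40599 and 47802 CPM and *Trem1* at 769 and 1128 against 857 and 908 CPM. Of all gated neutrophils, the interferon neutrophils were 18.4% in Control 1 (exact 95% interval 8.76% to 32.0%), 7.79% in Control 2 (exact 95% interval 5.10% to 11.3%), 2.20% in hucMSC-Exo 1 (exact 95% interval 0.267% to 7.71%) and 13.2% in hucMSC-Exo 2 (exact 95% interval 10.4% to 16.4%).

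Variation between the neutrophils of a library was described by the variance of a gene over its mean, a measure that rises with the level of a gene. After each cell was thinned to 1000 UMIs, which left out 19 of the 873, the variance of *Cxcl2* was 29.6, 24.4, 35.7 and 18.4 times its mean. Its median was 5, 17, 17 and 12 UMIs in a cell, and in hucMSC-Exo 1 it ran from 2 at the 10th to 76.4 at the 90th percentile. *Fth1* had a variance of 19.7 to 24.1 times its mean and medians of 21, 63.5, 72 and 48 UMIs. *Cstdc4* was found in 5.13, 40.1, 37.9 and 45.6% of the thinned cells, with up to 39 UMIs in 1 cell, and *Spp1*, osteopontin, in 7.69 to 17.2%, with up to 47. *Slpi* varied most in hucMSC-Exo 1, with variances of 2.41, 7.29, 18.4 and 6.87 times its mean. Of the rule genes, *S100a9* (23.4 to 35.9 times) and *S100a8* (16.6 to 24.9 times) varied as widely.

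From cell to cell *S100a8* and *S100a9* moved together, with Spearman correlations of 0.801, 0.862, 0.841 and 0.892 over 39, 292, 87 and 436 thinned cells. *Stfa2l1* and *Cstdc4* followed at 0.487, 0.451, 0.579 and 0.667, and *Il1b* and *Nfkbia*, an inhibitor of NF-kB that NF-kB induces, at 0.645, 0.263, 0.211 and 0.336. Other pairs were lower, such as *Cxcl2* and *Cxcl3* at 0.168 to 0.426, *Cxcl2* and *Ccl3* at 0.218 to 0.383 and *Ccl3* and *Ccl4* at 0.152 to 0.273. *Bcl2a1b* and *Retnlg* stood at -0.380 to -0.0500. These values describe cells of 1 mouse each that share a library and a depth, and in sparse counts weak values are no finding.

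**Figure D4:**
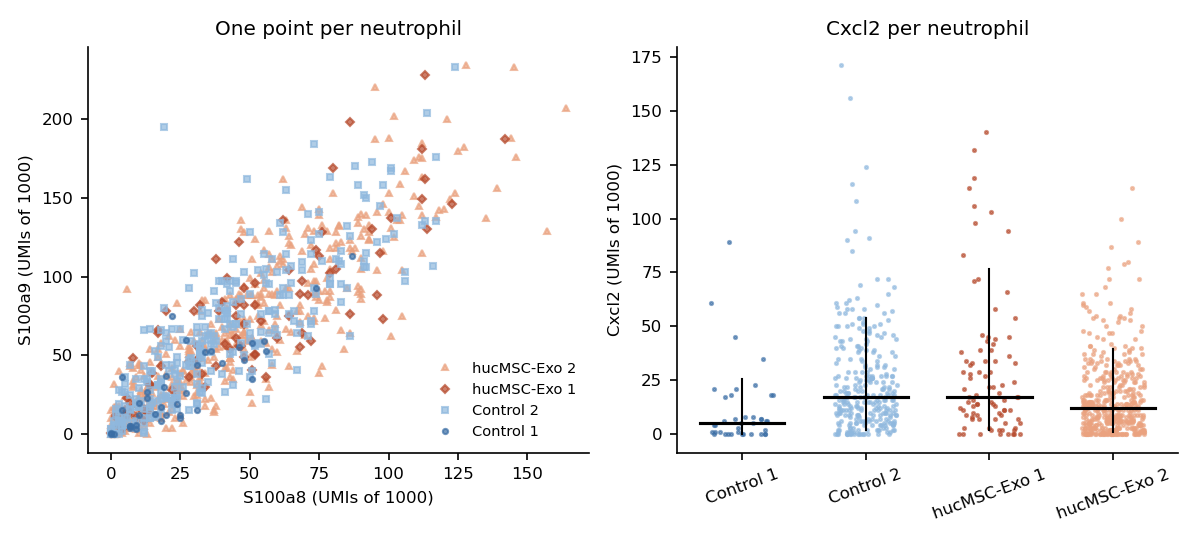
UMIs per neutrophil after thinning to 1000. Left, *S100a9* against *S100a8*, 1 point per cell and 1 symbol per library; right, *Cxcl2* per cell in each library with the median (horizontal line) and the 10th to 90th percentile (vertical line), with a long upper tail around medians of 5, 17, 17 and 12.

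Single neutrophils carried most of some genes, and these cells were picked after their values were seen. In hucMSC-Exo 1, 1 neutrophil held 111 of the 118 *Dct* UMIs, 55 of the 57 *Pmel* UMIs and 76 of the 77 *Ptgds* UMIs. *Dct* and *Pmel* are melanocyte genes, and the cell also held 5 of the 8 rule genes and 49 UMIs of *S100a8*, with 1980 detected genes. It held 6163 UMIs in all, against a median of 1875 in the neutrophils of that library. Scrublet, which calls doublets, left it as a single cell. In hucMSC-Exo 2, 1 neutrophil with all 8 rule genes held 91 of the 95 *Ngp* UMIs, together with 40 UMIs of *Ltf* and 11 of *Camp*, genes of specific granules. In Control 2, 1 neutrophil held 539 of the 548 *Apod* UMIs. *Ccn1*, which encodes a matricellular protein, was less extreme, with 20 of the 36 *Ccn1* UMIs of hucMSC-Exo 1 and 49 of the 97 *Ccn1* UMIs of hucMSC-Exo 2 in 1 neutrophil each.

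The comparison of the hucMSC-Exosomes group with the control group uses the groups of the sample titles. It speaks to exosome treatment only if these titles are right. UMIs were summed over the neutrophils of each library and compared by the quasi-likelihood test of edgeR with adjustment after Benjamini and Hochberg. Of 3925 genes tested, 0 had an adjusted p under 0.05 (0% of those tested), and 76 had an unadjusted p under 0.05. The lowest adjusted p in edgeR was 0.463, for *Ccn1*. DESeq2 called 0 genes as well, with 28 at an unadjusted p under 0.05. Both hucMSC-Exo libraries lay above both Control libraries in 11.6% of the tested genes and below both in 17.1%, against which counts of separate groups below are read.

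No named gene passed the test. The log2 fold change of the hucMSC-Exosomes group over the control group was 0.60 ± 0.45 for *S100a8* and 0.60 ± 0.49 for *S100a9* (SE, edgeR), 1.15 ± 0.51 for *Slpi* and 1.21 ± 0.54 for *Cstdc4*, each with an adjusted p of 0.999. Without Control 1, the library in which all 4 genes were lowest, the log2 fold changes were 0.18, 0.07, 0.55 and 0.49. *Cxcl2* differed by 0.42 ± 0.49 and *Il1b* by -0.43 ± 0.41. *Ptgs2*, the cyclooxygenase of prostaglandin synthesis, differed by -1.47 ± 0.45, with 2554 and 780.5 CPM in the control group and 499.7 and 518 in the hucMSC-Exosomes group, and by -0.63 without Control 1. For *Cd74* the estimate was -1.65 ± 0.57, with 81.6 and 439.8 CPM in the control group and 57.9 and 112 in the hucMSC-Exosomes group, and without Control 2 it was 0.48. The following genes were singled out after their values were seen. The metallothionein gene *Mt1* stood at 222 and 283 CPM in the control group and 742 and 496 in the hucMSC-Exosomes group, a log2 fold change of 1.37 ± 0.41, and *Mt2* at 163 and 90.8 CPM in the control group and 468 and 180.3 in the hucMSC-Exosomes group, a change of 1.60 ± 0.51. Without hucMSC-Exo 1 the change of *Mt2* was 0.71. The heat shock gene *Hspa1a* differed by 1.26 ± 0.42 and *Cybb* by 1.88 ± 0.63, the latter by 7.94 without Control 2, where the remaining control library has 0 UMIs of *Cybb*, so that this value is no measure of size. All of these, too, had an adjusted p of 0.999 in edgeR. Calls appeared when 1 control library was left out. Without Control 2, the log2 fold changes of *Slpi* (2.21, edgeR adjusted p = 0.00858), *Cstdc4* (2.87, 0.000258), *Ptgs2* (-1.98, 0.00066) and *Mt1* (1.83, 0.0274) passed the threshold. Without Control 1, those of *Cd74* (-2.31, edgeR adjusted p = 7.92e-06) and *Mt2* (1.78, 0.0302) did.

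The gene groups held no called gene either. Of the 24 tested genes that the study names for neutrophils, which it chose on these samples, 0 passed the test and 0 had separate groups in either direction, with a median log2 fold change of 0.13 against 0.03 for all genes tested. Ribosomal protein genes had a median of 0.38, with 10 of 79 above and 0 below both Control libraries. Mitochondrial genes had a median of 0.57, with 6 of 11 above. The 14 NF-kB feedback genes had a median of -0.46, with 5 below, and the 17 glycolysis and hypoxia genes one of 0.43, with 3 above. The 11 tested chemokine genes had a median of 0.24 and 0 separate in either direction. The 4 tested class II genes had a median of -1.35, with 1 below and 3 at an unadjusted p under 0.05, and the summed level of the class II genes was high in Control 2 alone, at 1340.4 CPM against 325 to 385 in the other libraries. Medians were 0.22 for sensing genes, 0.09 for chemoattractant receptors, -0.34 for survival genes and 0.28 for the keratinocyte markers.

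Control 1 differed from the other libraries in NF-kB feedback genes. In its neutrophils the 14 genes summed to 13223 CPM, against 5657 to 6017 in the other libraries, while the sums in the other kept cells were 3123 to 3749 CPM over all 4. *Nfkbia* stood at 4956 CPM in Control 1 and at 2094 to 2398 elsewhere. *Junb* stood at 4617 against 926 to 1473 CPM, *Tnfaip2* at 2274 against 631 to 790.2, *Tnfaip3* at 1084 against 173 to 226 and *Icam1* at 501 against 69.8 to 105 CPM. *Ccrl2*, at 2589 against 873 to 1346 CPM, and *Ptgs2*, at 2554 against 499.7 to 780.5 CPM, were also highest there. *Cxcl3*, at 175 against 1515 to 1999 CPM, *Hmox1*, at 46.6 against 366 to 1273, and *Spp1*, at 187 against 558 to 675 CPM, were lowest. These genes were picked after their values were seen. The edgeR test called 19 genes without Control 1, 53 without Control 2, 2 without hucMSC-Exo 1 and 6 without hucMSC-Exo 2.

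**Figure D5:**
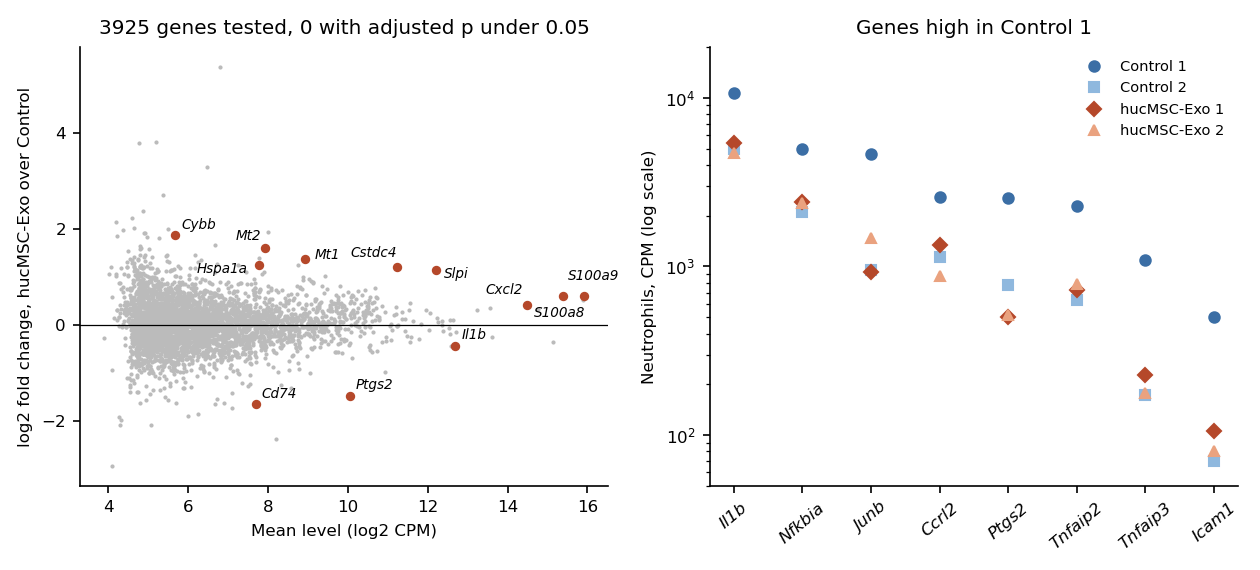
Left, log2 fold change of the hucMSC-Exosomes group over the control group in the neutrophils against the mean level in log2 CPM, 1 point per tested gene, with the genes whose fold changes are printed in red. Right, CPM on a log axis of 8 genes in the neutrophils of each library, chosen because they were high in Control 1, which lies above the other libraries for all 8, for *Il1b* at 10693 against 4697 to 5412 CPM.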

How the data were processed

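The deposited values are counts: the authors aligned droplet 3′ reads (10x Genomics) to mm10 with Cell Ranger 6.1.2 and counted UMIs per gene and cell, without normalization, and the deposited files hold fewer cells than the paper states. They hold 1098, 2422, 1539 and 2119 cells (Control 1, Control 2, hucMSC-Exo 1, hucMSC-Exo 2). Whether doublets had been removed is not given for these files. Scrublet, as an alternative, called 48 of 7178 cells doublets.

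The gate used raw counts (Python 3.11.15, Scanpy 1.11.5, SciPy 1.17.1). The members, gene lists and tests were chosen with earlier results of these data known. UMIs were summed per library and compared with edgeR 4.0.16 (quasi-likelihood test, TMM, filterByExpr, Benjamini-Hochberg at 0.05, R 4.3.3) over all genes tested, with DESeq2 1.42.0, other scaling, gates and filters, a replicate block, thinning to 1000 UMIs and leaving out each library as alternatives. The edgeR script was tested on simulated counts with a single dispersion for all genes and a single size of change. That check concerns the script and does not show which other sizes of change 2 libraries per group can detect. The study's own test over cells was not used, since cells of a mouse are not replicates. The p-values measure the spread between 2 mice per group.

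The genes named are the 30 with the highest mean CPM, the 25 outside the rule with the largest lowest-library fold, the 15 with the largest variance over mean, the 4 highest of each list, and those the study names for neutrophils. Other named genes are members of the lists, or were chosen after their values were seen. A share or level at 0 was read against a floor of 3 counts. Shares have exact Clopper-Pearson intervals. The neutrophils held 85761, 716220, 190133 and 1075704 UMIs. Promoters are from RefSeq, build GRCm38.p6.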

Additional observations from a re-analysis of the deposited data

Results flagged for a closer look

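The filters on cells left out 23 cells that met the gate for neutrophils without interferon genes, 3 and 10 in the control libraries and 2 and 8 in the hucMSC-Exo libraries. They are given here as neutrophil signal in cells that no comparison uses. Of the 23, 14 had more than 3000 detected genes and 10 had over 10% mitochondrial UMIs, so that 1 cell met both conditions.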

How the results depend on the processing

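The count of 0 genes called between the groups was also 0 under DESeq2, RLE size factors, the replicate block, a gate of 5 genes, the interferon neutrophils not left out, no exclusion by *Cd3g*, *C1qa* and *Mcpt8*, no upper limit on genes, no Scrublet doublets and thinning. Without the filter on low counts 7 of 13908 genes were called (*Dct*, *Pmel*, *Ptgds*, *Ngp*, *Ccn1*, *Apod* and *Vcan*), and when the 3 neutrophils with most *Dct*, *Ngp* and *Apod* were also left out, an alternative chosen after seeing the data, 1 was called, *Ccn1*, of which, over all neutrophils, 1 cell held 20 of 36 UMIs in hucMSC-Exo 1 and 1 cell 49 of 97 in hucMSC-Exo 2. Leaving out 1 library gave 2 to 53 called genes; the lone library of a group is then assumed to vary like the others. The deviations of same-numbered libraries from their group means had a correlation of 0.00255. With 2 libraries per group this is a single value, which cannot exclude a pairing by replicate number. With the replicate block 0 genes were called and 81 had an unadjusted p under 0.05 in edgeR. The difference in share ranged from -2.95 to 13.2 percentage points when 1 library was left out and from 4.11 to 5.79 under the other alternatives. The median log2 fold of the leading genes over the other cells was 4.91 to 6.28 under its 4 alternatives. Of the printed log2 fold changes, *Cxcl2* ranged from -0.13 to 1.18, *Il1b* from -0.72 to 0.00739 and *Cd74* from -2.31 to 0.48 when 1 library was left out, and the other 9 genes kept their sign under the alternatives run but not their size: when 1 library was left out, *S100a8* ranged from 0.18 to 1.21, *S100a9* from 0.07 to 1.44, *Slpi* from 0.51 to 2.21, *Cstdc4* from 0.49 to 2.87, *Ptgs2* from -1.98 to -0.63, *Mt1* from 1.01 to 1.83, *Mt2* from 0.71 to 2.27, *Hspa1a* from 0.87 to 1.56 and *Cybb* from 1.51 to 7.94. *Hspa1a* was 0.28 without the exclusion by *Cd3g*, *C1qa* and *Mcpt8*, *Mt2* 0.61 after thinning and *Cybb* 0.85 with the interferon neutrophils. The cause of these changes was not tested. Control 1 holds 40 neutrophils and 85761 UMIs, and the part of its low depth in the count of calls was not tested.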
